A study of Mus musculus with 6 samples.

Results

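The peaks described here lie nearest to 7 genes of the RUNX and core binding factor family, Runx1, Runx2, Runx3, Cbfb, Runx1t1, Cbfa2t2 and Cbfa2t3. They were chosen by gene name alone: every peak in the deposited table of all peaks whose nearest annotated start site belonged to one of these genes was taken, 29 of 22188 peaks. Runx1 had 10 peaks, Runx2 had 7, Runx1t1 had 6, Runx3 and Cbfa2t3 had 2 each, and Cbfb and Cbfa2t2 had 1 each. All 29 peaks are accounted for and no filter on height was applied to them. A peak named for a gene need not regulate it, since the name only gives the nearest start site.

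RUNX1, RUNX2 and RUNX3 bind DNA through a runt domain and are best known for their roles in the development of blood, of bone and cartilage, and of neurons and lymphocytes, respectively. CBFβ, the product of Cbfb, does not contact DNA itself but binds the runt domain and strengthens its hold on DNA. Runx1t1 (also called ETO), Cbfa2t2 and Cbfa2t3 encode corepressors of the MTG family, which do not bind DNA directly and recruit histone deacetylase complexes, and Runx1t1 and Cbfa2t3 were both found as partners of RUNX1 in leukaemia fusion proteins.

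KLF3 is a zinc finger repressor that binds CACCC boxes and GC-rich elements and recruits the corepressor CtBP. Murine embryonic fibroblasts (MEFs) of strain C57BL/6 and genotype Klf3-/- were rescued by retrovirus with V5-tagged KLF3, with ΔDL-V5, in which the CtBP contact motif is mutated, or with DBD-V5, which keeps only the zinc finger DNA-binding domain. All 3 groups thus lack endogenous KLF3, and each construct was represented by clonal cells, so a difference between constructs cannot be told apart from a difference between clones. Chromatin immunoprecipitation with an anti-V5 antibody and sequencing was done in 2 replicates per construct, each with an input. Peak files hold no expression by which the fibroblast label could be checked. The comparisons below ask how occupancy at the RUNX and core binding factor genes differed when the CtBP contact or the whole N-terminal domain was missing.

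The replicate lists rested on unequal tag totals. A tag is an aligned read as counted in the peak scores, and the total to which the scores of a list were scaled, recovered from the step between them, ranged from 1.77 M in ΔDL replicate 1 to 18.1 M in KLF3 replicate 2. These totals are not the sequencing depth. They are smaller and spread more widely than the mapped reads that the study lists for the same libraries, and the reason was not tested. A peak height is the number of tags in 400 bp with both replicates of a construct combined, scaled to 100 M tags and deposited as log2; it is given here as normalized tags, where 1 tag was worth 4.29 in KLF3, 8.45 in ΔDL and 6.23 in DBD, and where a uniform spread over the genome would give 15.1. Since replicates are combined, a height has no replicate error, and the 95% intervals given with differences are exact binomial intervals of the recovered tags, which cover counting error only.

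The sequences at the centres of the highest KLF3 peak of each gene except Runx2, of the 2 peaks listed for all 3 constructs and of the Runx1 peak with the most negative difference in ΔDL are printed first because they show which peaks held a KLF motif and which did not. Each is 100 bases of mm9, forward strand, 5′ to 3′. Capitals mark the core of the KLF consensus where the whole consensus, with its flanking bases, matches within the 100 bases on either strand. In sequences without that match they mark the RUNX motif TGTGGTT, the AP-1 motif TGAGTCA, the box CACCC or, failing these, the shorter RUNX core TGTGG. Sequences with no capitals held none of these motifs within the 100 bases.

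The promoter peaks of Cbfb and Cbfa2t2 and a Runx3 peak held the KLF consensus:

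Cbfb, chr8:107694246-107694345: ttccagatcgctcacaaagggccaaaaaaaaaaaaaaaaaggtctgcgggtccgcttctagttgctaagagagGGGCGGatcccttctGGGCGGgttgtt

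Cbfa2t2, chr2:154261891-154261990: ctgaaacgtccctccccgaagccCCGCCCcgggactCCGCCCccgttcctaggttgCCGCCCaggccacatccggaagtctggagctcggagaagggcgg

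Runx3, chr4:134651635-134651734: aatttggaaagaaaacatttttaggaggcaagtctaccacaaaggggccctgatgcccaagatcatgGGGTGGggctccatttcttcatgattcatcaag

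The Runx1 intron peaks begin with the highest KLF3 peak (AP-1 motif) and the peak listed for all 3 constructs (short RUNX core). The last is the one lowest in ΔDL relative to KLF3 (RUNX motif, with a CACCC box on the reverse strand left unmarked):

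Runx1, chr16:92654247-92654346: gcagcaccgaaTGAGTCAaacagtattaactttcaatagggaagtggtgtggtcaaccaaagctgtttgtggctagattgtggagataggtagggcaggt

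Runx1, chr16:92648139-92648238: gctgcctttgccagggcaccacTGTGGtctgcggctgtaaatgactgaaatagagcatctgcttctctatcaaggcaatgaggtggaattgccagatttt

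Runx1, chr16:92608477-92608576: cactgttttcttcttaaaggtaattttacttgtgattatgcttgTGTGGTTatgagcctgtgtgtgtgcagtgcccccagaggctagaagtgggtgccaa

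The highest peaks of Cbfa2t3 and Runx1t1, and the Runx1t1 peak listed for all 3 constructs (chr4:13524146-13524245), held a CACCC box or no motif searched:

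Cbfa2t3, chr8:125185006-125185105: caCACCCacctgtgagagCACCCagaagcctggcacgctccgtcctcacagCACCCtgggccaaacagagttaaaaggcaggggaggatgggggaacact

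Runx1t1, chr4:13713008-13713107: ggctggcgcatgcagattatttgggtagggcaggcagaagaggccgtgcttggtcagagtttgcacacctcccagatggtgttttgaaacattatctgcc

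Runx1t1, chr4:13524146-13524245: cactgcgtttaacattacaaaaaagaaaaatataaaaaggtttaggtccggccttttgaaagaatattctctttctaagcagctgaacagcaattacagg

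The family's peaks lay mostly in introns. Of the 29 peaks, 17 (58.6%) were in introns, 10 were intergenic and 2 (6.90%) were in promoters, whereas 32.8% of all peaks of the table were in introns and 20.1% in promoters. The 2 promoter peaks belonged to Cbfb and Cbfa2t2, and none of the 3 RUNX genes had one in the table. Of the 10 Runx1 peaks, 9 were intronic, and these lay 104.2 to 217.8 kb from the 5′ end of a gene model of 225 kb. The median distance to the nearest start site was 43.3 kb, against 24.4 kb for all peaks.

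More of these sites were listed for wild-type KLF3 than for either mutant. The table lists for each peak the constructs that have it, and KLF3 was listed at 21 of the 29 family peaks, ΔDL at 12 and DBD at 3. At each of these, the construct had a call in both of its replicates. Over all peaks of the table, the shares called in both replicates were 64.1% for KLF3, 55.9% for ΔDL and 22.4% for DBD, while the family's were 72.4%, 41.4% and 10.3%. By combination, 16 of the 29 peaks were listed for KLF3 alone, 7 for ΔDL alone, 3 for KLF3 and ΔDL, 2 for all constructs and 1 for DBD alone. For KLF3 alone the share was 55.2%, against 42.4% of all peaks. For ΔDL alone it was 24.1%, against 24.8%, and for all constructs 6.9%, against 10.5%. Of all 22188 peaks, 2304 were listed for KLF3 and ΔDL and 463 for DBD alone.

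**Figure D1:**
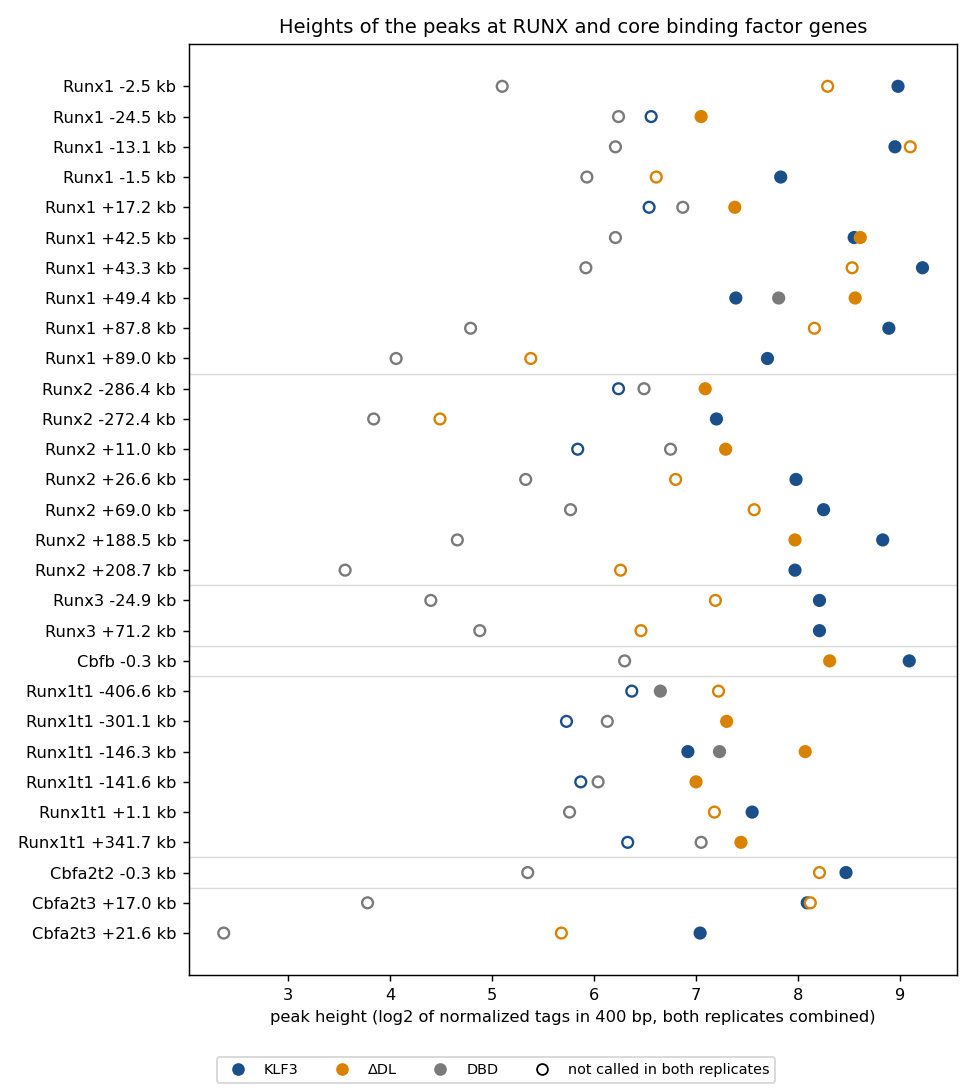
Height of each of the 29 peaks in KLF3, ΔDL and DBD, on a log2 scale of normalized tags in 400 bp with both replicates combined. Rows are peaks, named by gene and distance from the nearest start site in kb, and filled points mark constructs in which the peak was called in both replicates. DBD lies to the left of ΔDL in all 29 rows.

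Among the RUNX genes, Runx1 had the highest peak. It lay in an intron 43277 bp downstream of the nearest start site (chr16:92654096-92654496, mm9) and measured 596 normalized tags in KLF3, 370 in ΔDL and 60.5 in DBD. In the replicate lists it held 38 and 68 tags in KLF3, was called with 28 tags in ΔDL replicate 2 only, and was called in neither DBD replicate. Of all peaks listed for KLF3, 7.49% were at least this high. Its ΔDL height was lower by a log2 difference of -0.69 (interval -1.23 to -0.20) and its DBD height by -3.30 (interval -4.56 to -2.43). Its mean conservation score of 0.83 was well above the median of 0.08 over all peaks. This was not general, since the score ran from 0.0 to 0.83 over the Runx1 peaks, with a median of 0.095. The family's median was 0.15, and the nearly as high Runx1 peak at -13092 bp scored 0.0.

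Not all Runx1 peaks followed this order. A neighbouring intron peak, 49385 bp from the start site, measured 168 normalized tags in KLF3, 377 in ΔDL and 224 in DBD and passed peak calling in all 6 replicates. The lists held 18 and 19 KLF3 tags, 11 and 29 ΔDL tags, and 19 and 16 DBD tags. ΔDL was thus the highest and KLF3 the lowest of the 3, with a log2 difference of 1.17 for ΔDL (interval 0.53 to 1.86) and of 0.42 for DBD (interval -0.28 to 1.12), so that DBD could not be separated from KLF3 by counting error. Equal medians over all peaks listed for all 3 constructs took log2 shifts of -1.06 for ΔDL and -0.42 for DBD. The differences at this peak were thus close to those of such peaks in general.

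The replicate scores at that site, which are tags per 100 M, were 217 ± 159 in KLF3, 453 ± 240 in ΔDL and 217 ± 36.9 in DBD (mean ± SD, n = 2). ΔDL was above KLF3 in replicate 1 (623 against 330) and in replicate 2 (283 against 105). The SDs hold an offset between whole lists, since the score in replicate 1 exceeded that in replicate 2 by a median log2 value of 1.69 over all peaks called in both ΔDL replicates and of 0.63 over those of KLF3.

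The Runx1 peak with the most negative difference in ΔDL was 89047 bp downstream of the start site. It measured 208 normalized tags in KLF3, 41.6 in ΔDL and 16.7 in DBD, and it held 9 and 22 tags in the KLF3 replicates but was called in no replicate of either mutant. The log2 difference was -2.32 in ΔDL (interval -4.54 to -1.16) and -3.64 in DBD (interval -7.13 to -2.11).

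Of the other 7 Runx1 peaks, 5 were listed for KLF3, with 228 to 505 normalized tags in KLF3. One of them, upstream of the gene at -2456 bp, measured 505 in KLF3, 313 in ΔDL and 34.3 in DBD. The intron peak at -13092 bp was nearly equal in KLF3 (495) and ΔDL (549) and low in DBD (74.0), and the intron peak at 42544 bp likewise gave 375, 391 and 74.0. At -1514 bp, in a CpG island, KLF3 measured 228, ΔDL 97.7 and DBD 61.0. The peak at 87813 bp, with a conservation score of 0.74, was lower in both mutants, with 474 in KLF3, 286 in ΔDL and 27.7 in DBD. The remaining 2, at -24513 bp and 17156 bp, were listed for ΔDL alone and measured under 100 normalized tags in KLF3. The peak at 17156 bp was still called in KLF3 replicate 1 (13 tags) and in DBD replicate 1 (8 tags).

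The highest Runx2 peak was intergenic by the deposited annotation but fell inside the longer gene model of GENCODE, 188479 bp from the start site, and measured 455 normalized tags in KLF3, 251 in ΔDL and 25.3 in DBD. It held 26 and 55 tags in the KLF3 replicates and 7 and 12 in those of ΔDL, and it was called in neither DBD replicate. Relative to KLF3, ΔDL was lower by a log2 difference of -0.86 (interval -1.52 to -0.27) and DBD by -4.17 (interval -6.89 to -3.00).

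The Runx2 peak with the most negative difference was in an intron of the neighbouring gene Supt3, at -272361 bp, where KLF3 measured 147 normalized tags, ΔDL 22.5 and DBD 14.3. The log2 difference in ΔDL was -2.71 (interval -6.21 to -1.15), the lowest of the 29. The most positive difference was at a peak annotated to another Supt3 intron, at 10966 bp, which also lay inside the gene model of Runx2. It measured 57.3 in KLF3, 156 in ΔDL and 108 in DBD. ΔDL held 8 and 10 tags in its replicates there, DBD replicate 1 called it with 9 tags, and no KLF3 replicate called it. Its log2 difference was 1.45 (interval 0.34 to 2.60). In all, 3 of the 7 peaks named for Runx2 lay in introns of Supt3, and of these the peak at 10966 bp lay inside Runx2 as well.

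The other Runx2 peaks were listed for KLF3, except the one at -286439 bp, which was listed for ΔDL alone and measured 75.6 normalized tags in KLF3, 136 in ΔDL and 89.9 in DBD. That peak was also called in DBD replicate 1, with 11 tags. The KLF3 peaks at 26608, 68974 and 208661 bp measured 252, 304 and 251 in KLF3. In ΔDL they measured 111, 190 and 76.6 and in DBD 40.2, 54.6 and 11.8, so that KLF3 was highest and DBD lowest at each. The first had a conservation score of 0.84.

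Runx3 had 2 peaks, both intergenic and both listed for KLF3 alone. The upstream peak (-24876 bp) measured 296 normalized tags in KLF3, 146 in ΔDL and 21.1 in DBD. The downstream peak (71174 bp) also measured 296 in KLF3, with 88.0 in ΔDL and 29.4 in DBD. The log2 differences in ΔDL were -1.02 (interval -1.88 to -0.24) and -1.75 (interval -2.91 to -0.82), and those in DBD were -3.81 and -3.33. Neither peak was called in any replicate of ΔDL or DBD.

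**Figure D2:**
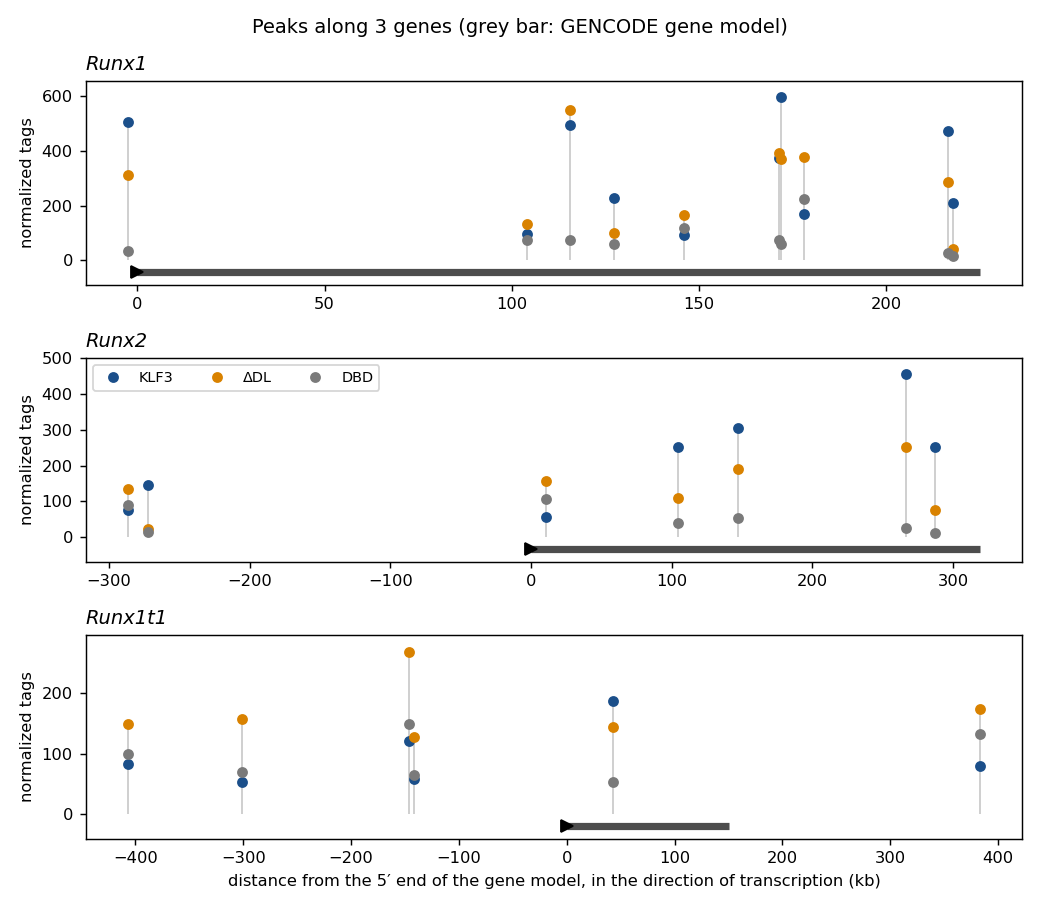
Heights in normalized tags (y axis) of the peaks of Runx1, Runx2 and Runx1t1 against their distance in kb from the 5′ end of the GENCODE gene model (x axis), which is drawn as a grey bar with an arrow at its start. On the deposited scale, ΔDL lies above KLF3 at 5 of the 10 Runx1 peaks, 2 of the 7 Runx2 peaks and 5 of the 6 Runx1t1 peaks (at 1, 1 and 4 when scaled over the peaks listed for all 3 constructs).

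Cbfb, which encodes the partner subunit of the RUNX proteins that does not contact DNA, had a single peak at its promoter, at -279 bp from the start site (chr8:107694095-107694495). It measured 545 normalized tags in KLF3, 317 in ΔDL and 78.8 in DBD. The replicates held 36 and 63 tags in KLF3 and 5 and 21 in ΔDL, and the peak was called in neither DBD replicate. ΔDL was lower than KLF3 by a log2 difference of -0.78 (interval -1.36 to -0.25) and DBD by -2.79 (interval -3.84 to -2.0). Of the peaks listed for KLF3, 9.71% were at least as high.

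Among the corepressor genes, Cbfa2t2 had its peak at the promoter, at -280 bp, with 355 normalized tags in KLF3, 296 in ΔDL and 40.8 in DBD. It held 20 and 39 tags in the KLF3 replicates and 17 in ΔDL replicate 2 but was not called in ΔDL replicate 1. ΔDL differed from KLF3 by a log2 value of -0.26 (interval -0.91 to 0.30), which counting error spans, while DBD differed by -3.12 (interval -4.72 to -2.05). Both promoter peaks were thus lower in DBD than in KLF3, and only that of Cbfb had an interval below 0 in ΔDL.

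Cbfa2t3 had 2 intron peaks, both listed for KLF3 alone. The higher, at 17020 bp, was equal in KLF3 (272 normalized tags) and ΔDL (278) and near the uniform level in DBD (13.7), and the log2 difference in ΔDL was 0.03 (interval -0.66 to 0.64). The lower, at 21596 bp, measured 132 in KLF3, 51.3 in ΔDL and 5.17 in DBD. At this site no whole DBD tag was recovered. The limit of 3 tags (18.7 normalized tags) that a count of 0 allows lay 7.04-fold below the KLF3 height. This ratio left out the counting error of the 30 KLF3 tags. With that error included, the upper end of the interval of the log2 difference in DBD was -2.39.

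At Runx1t1, 5 of the 6 peaks were higher in ΔDL than in KLF3, and 4 still were with heights scaled over the peaks listed for all 3 constructs. Over the table, ΔDL was higher than KLF3 at 58.4% of all peaks and 69.0% of those outside promoters. Of the 5 Runx1t1 peaks higher in ΔDL, 4 were not listed for KLF3. The other was the intergenic peak at -146254 bp, listed for all 3 constructs. The Runx1t1 peak that was lower in ΔDL was its highest in KLF3, in an intron 1128 bp from the start site. It measured 187 normalized tags in KLF3, 145 in ΔDL and 54.2 in DBD. Its replicates held 8 and 22 tags in KLF3, and none of the mutants' replicates called it. The log2 difference was -0.37 in ΔDL (interval -1.26 to 0.48) and -1.79 in DBD (interval -3.19 to -0.78).

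The intergenic Runx1t1 peak at -146254 bp was listed for all 3 constructs, with 121 normalized tags in KLF3, 269 in ΔDL and 150 in DBD. Its replicates held 11 and 15, 9 and 19, and 10 and 12 tags in the same order. The log2 difference was 1.15 in ΔDL (interval 0.34 to 1.92) and 0.31 in DBD (interval -0.61 to 1.1). Given the shifts of -1.06 and -0.42 that equalize medians over the peaks listed for all 3 constructs, this peak too was close to such peaks in general. The replicate scores were 142 ± 83.9, 348 ± 229 and 136 ± 10.7 (mean ± SD, n = 2). ΔDL was above KLF3 in replicate 1 (510 against 202) and in replicate 2 (186 against 82.9). The direction in replicate 1 was fixed by the listing, since every peak in the ΔDL replicate 1 list scored above 202. Only the direction in replicate 2 could have gone either way.

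The most positive ΔDL difference of the 29 was at -301119 bp of Runx1t1, where KLF3 measured 53.1 normalized tags, ΔDL 158 and DBD 70.0, a log2 difference of 1.57 in ΔDL (interval 0.43 to 2.75). The peak listed for DBD alone was at -406604 bp, with 82.7 in KLF3, 149 in ΔDL and 100.0 in DBD. It held 10 and 8 tags in the DBD replicates and 11 in ΔDL replicate 2. Its combined height was higher in ΔDL than in DBD, although only DBD called it in both replicates. The last 2, at -141588 and 341700 bp, were listed for ΔDL alone, with 58.5 and 80.4 in KLF3 and 128 and 174 in ΔDL. The peak at 341700 bp was still called in KLF3 replicate 1 (8 tags) and in DBD replicate 1 (9 tags).

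Over all 29 peaks, 8 were at least 2-fold lower in ΔDL than in KLF3 (27.6%), against 14.8% of all peaks of the table, and 6 were at least 2-fold higher (20.7%), against 28.8%. The 8 lower peaks were in Runx1 (2), Runx2 (3), Runx3 (2) and Cbfa2t3 (1), and the 6 higher were in Runx1t1 (4), Runx1 (1) and Runx2 (1). The median log2 difference was -0.37, against 0.42 over all peaks. Scaling the heights to equal medians over the peaks listed for all 3 constructs left 0 family peaks higher by this much (0.397% of all peaks) and 18 of 29 lower (43.0% of all peaks). The members' shares of lower and higher peaks stand beside these backgrounds as counts, with no test.

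In DBD, 19 of the 29 peaks (65.5%) were at least 2-fold lower than in KLF3, against 52.6% of all peaks, and 0 were at least 2-fold higher, against 3.27%. This count of 0 rested on the deposited scaling, since 9 peaks were at least 2-fold higher in DBD when the heights were scaled to equal medians over all peaks. That scaling shifts every DBD height by 1.16 in log2. The share of all peaks above the limit under it was not counted, so the 9 say nothing particular about the family. The median log2 difference was -2.65, against -1.45 over all peaks. ΔDL was higher than DBD at all 29 peaks, as it was at 21741 of the 22188 peaks of the table.

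**Figure D3:**
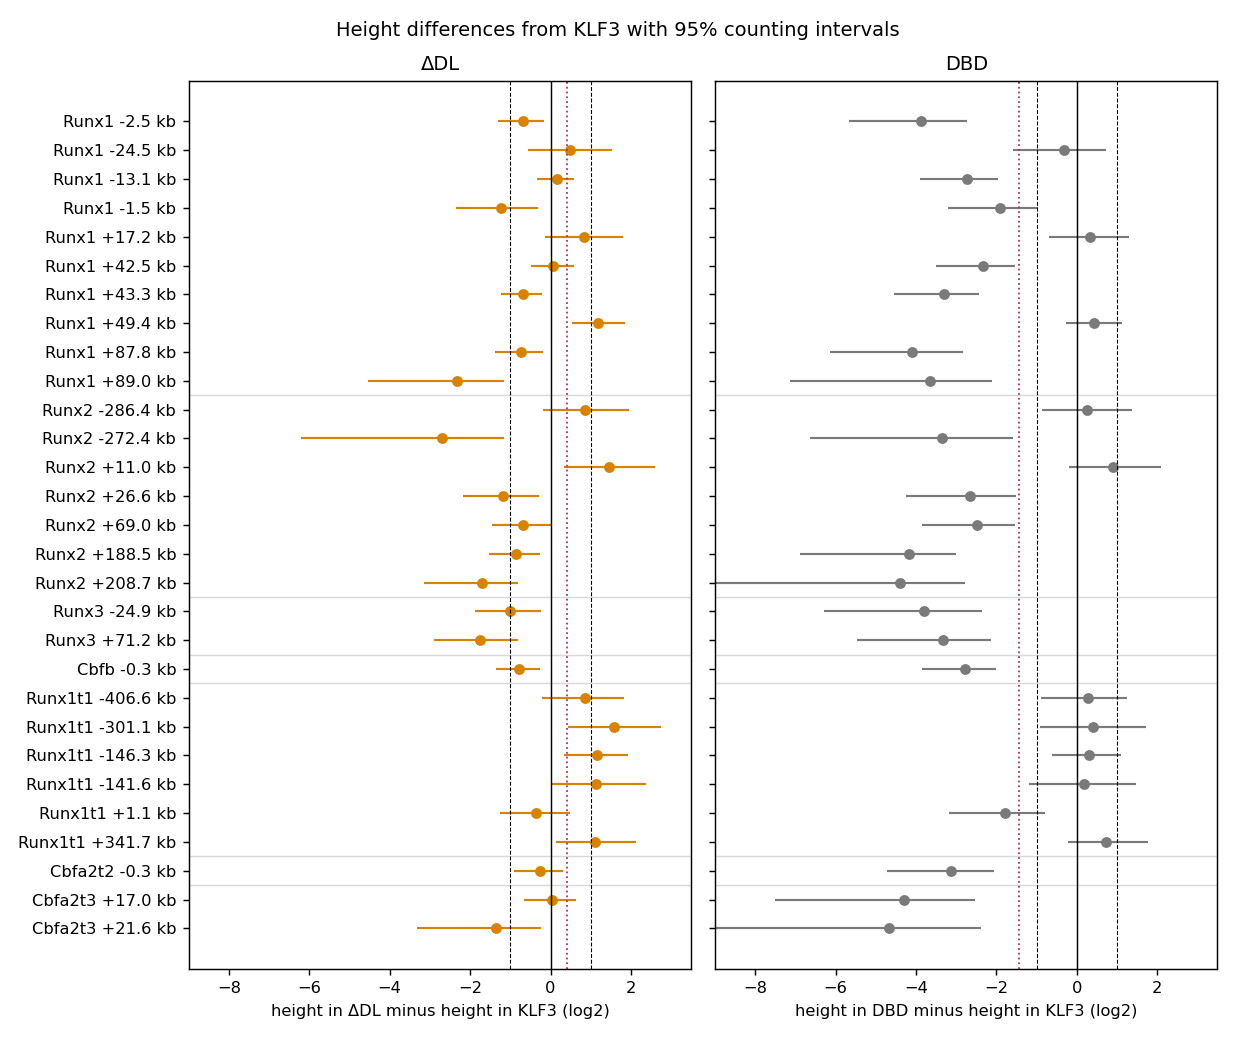
Log2 difference in height from KLF3 for ΔDL (left) and DBD (right) at the 29 peaks, with exact 95% counting intervals, which are cut at the left edge in 2 rows of DBD. The solid line marks equal height, the dashed lines 2-fold differences and the dotted line the median of all peaks (0.42 and -1.45). For DBD, 19 intervals lie below 0 and 0 lie above.

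Read by their counting intervals, 13 of the 29 peaks were below KLF3 in ΔDL, against 21.8% of all peaks, and 6 were above, against 32.1%. In DBD 19 intervals were below 0, against 52.8% of all peaks, and 0 were above, against 3.75%. The members below 0 in DBD were 7 of Runx1, 5 of Runx2, 2 of Runx3, 2 of Cbfa2t3 and 1 each of Cbfb, Cbfa2t2 and Runx1t1, which is every peak listed for KLF3 except the 2 listed for all 3 constructs.

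The split by listing matters for these counts. Among the 21 family peaks listed for KLF3, 8 were at least 2-fold lower in ΔDL (38.1%), against 23.3% of all peaks listed for KLF3, and 2 were at least 2-fold higher, against 11%. In DBD 19 of the 21 were at least 2-fold lower, against 79.2%, and 0 were higher, against 0.184%. The 8 family peaks not listed for KLF3 were all higher in ΔDL than in KLF3, by log2 differences of 0.49 to 1.57, and 98.2% of all peaks not listed for KLF3 were too, so this direction follows from the listing.

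A listing for KLF3 alone did not mean that ΔDL had no peak. Of the 16 such family peaks, 7 were called in ΔDL replicate 2, among them the highest Runx1 peak and the Cbfa2t2 promoter, and 0 were called in ΔDL replicate 1. Over the 9418 peaks of the table listed for KLF3 alone, 62.0% were called in ΔDL replicate 2 and 3.29% in replicate 1. The scores of ΔDL replicate 1 had the lowest recovered total (1.77 M tags), and the part of this total in the listings was not tested. None of the 16 was called in a DBD replicate. Of the 9418 peaks, only 0.913% were called in DBD replicate 1 and 1.74% in replicate 2, so such a count is usual for this listing.

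Each replicate list was also searched for peaks named for the 7 genes. KLF3 had 37 and 42 such peaks (39.5 ± 3.54, mean ± SD, n = 2), ΔDL had 17 and 40 (28.5 ± 16.3) and DBD had 8 and 5 (6.5 ± 2.12). The family counts of the 2 KLF3 lists and the 2 DBD lists did not overlap, while ΔDL replicate 2 lay between both KLF3 lists. The whole lists differed in the same way, with 26772 and 23872 peaks in KLF3, 17206 and 32624 in ΔDL and 9156 and 8105 in DBD. The mean difference was -33 for DBD (two-sided exact permutation test, p = 0.333) and -11 for ΔDL (two-sided exact permutation test, p = 0.667), where 2 lists against 2 cannot give a p below 0.333. Without ΔDL replicate 1 the ΔDL difference was 0.5.

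As shares of the whole lists, the family's peaks made up 0.138% and 0.176% in KLF3, 0.0988% and 0.123% in ΔDL and 0.0874% and 0.0617% in DBD. When each list was cut to its 8105 peaks with the highest scores, KLF3 retained 12 and 14 family peaks, ΔDL 8 and 9, and DBD 8 and 5. The order of the constructs was kept for their means, with a DBD difference of -6.5.

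**Figure D4:**
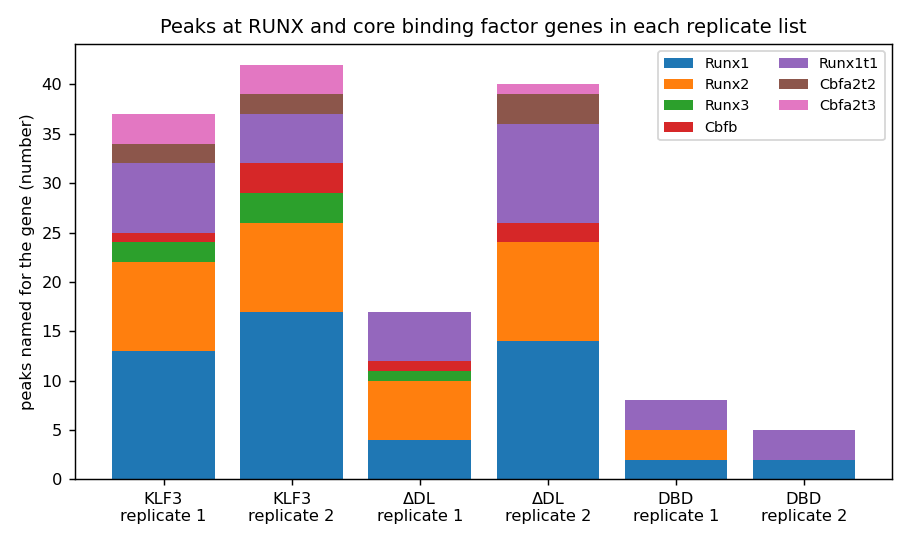
Number of peaks named for each of the 7 genes (stacked colours) in each of the 6 replicate lists. The bars reach 37 and 42 in KLF3, 17 and 40 in ΔDL, and 8 and 5 in DBD, where only Runx1, Runx2 and Runx1t1 have a peak.

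The promoters of Runx1, Runx2, Runx1t1 and Cbfa2t3 were called in single replicates only, or at positions that did not overlap, and so do not appear in the table. At the proximal Runx1 promoter, KLF3 replicate 1 called a peak at -442 bp with 8 tags and KLF3 replicate 2 one at -119 bp with 32 tags, and ΔDL replicate 2 called one at -114 bp with 11 tags. At a Runx2 promoter, KLF3 replicate 2 held 20 tags at -192 bp and ΔDL replicate 2 held 9 tags at -150 bp. KLF3 replicate 2 also called a peak at -349 bp of Cbfa2t3 with 20 tags and 2 at a Runx1t1 promoter, at -287 and 27 bp, with 13 tags each. No DBD replicate called a promoter of any of the 7 genes. Of all 4452 promoter peaks of the table, only 230 were called in any DBD replicate and 1.44% were listed for DBD, so such a count is usual for promoters. In all, 14 and 21 KLF3 peaks, 5 and 20 ΔDL peaks and 1 and 2 DBD peaks of these genes overlapped no peak of the table.

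The KLF consensus, a CACCC or GC box with A or C and A or G allowed at its variable positions, was searched on both strands in the central 100 bp. It was present in 7 of the 29 peaks (24.1%, Wilson 95% interval 12.2 to 42.1%), against 39.5% of all peaks and 82.2% of all promoter peaks. Runx1 had 3 of the 7, Runx3 had 2 and Cbfb and Cbfa2t2 had 1 each, and no peak of Runx2, Runx1t1 or Cbfa2t3 held it whole within the window. The Cbfa2t3 peak at 17020 bp held its core at the very edge of the window. The flanking bases of that core fell outside, so it was not counted. Outside promoters it was in 5 of 27 family peaks (18.5%), against 28.8% of all peaks outside promoters. In 400 bp it was in 18 of the 29 (62.1%), against 59.8%. All 7 peaks with the consensus in 100 bp were listed for KLF3 and at least 2-fold lower in DBD, as were 79.2% of all peaks listed for KLF3.

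A RUNX motif (TGTGGTT, both strands, central 200 bp) was in 3 of the 29 peaks (10.3%, Wilson 95% interval 3.58 to 26.4%), against 6.15% of all peaks. Of these, 2 were Runx1 peaks and 1 was the highest KLF3 peak of Runx1t1. The shorter core TGTGG, which is contained in it, was in 17 peaks (58.6%), against 43.9%. The AP-1 motif (TGAGTCA or TGACTCA, central 200 bp) was in 3 peaks, against 12.3% of all peaks, all of them at Runx1. The G+C content of the 29 peaks had a median of 45.1%, against 44.9%, and ran from 35.4 to 65.1%.

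Across constructs, the genes whose median heights were nearest to those of a member were found among the 2495 genes with at least 3 peaks, by Euclidean distance over the 3 log2 medians. They were Phldb2, Ergic1 and Slc44a3 for Runx1 (distances 0.12 to 0.15), Gmnn, Bcl2l11 and Pik3r5 for Runx2 (0.17 to 0.18), and 1700007B14Rik, Inhba and Pcmtd1 for Runx1t1 (0.035 to 0.09). With 3 points a gene this is a description only. Runx1t1 was set apart from Runx1 and Runx2 by a lower median in KLF3 (6.35, against 8.19 and 7.97).

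Other genes of the RUNX pathway were read in the same way. Of 32 partners and regulators of RUNX proteins, 26 had a peak, with 86 peaks in all. Of these peaks, 24 (27.9%) were at least 2-fold lower in ΔDL and 15 (17.4%) higher, and 60 (69.8%) were lower in DBD and 1 higher. The promoter of Ets1, a partner that binds DNA together with RUNX1, measured 765 normalized tags in KLF3, 241 in ΔDL and 40.2 in DBD. The promoter of Ncor1, a corepressor, measured 138, 22.5 and 27.5, while that of Tle4, also a corepressor, was nearly equal in KLF3 (498) and ΔDL (501) and low in DBD (56.1). Of 24 genes bound or regulated by RUNX proteins, 12 had a peak, with 33 peaks, of which 9 (27.3%) were at least 2-fold lower in ΔDL, 3 higher, 27 (81.8%) lower in DBD and 0 higher. The promoter of Vegfa, an angiogenic growth factor, measured 580, 121 and 30.3 in KLF3, ΔDL and DBD, and that of Cdkn1a, a cell cycle inhibitor, measured 449, 236 and 47.5. A Cdkn2a promoter peak at -577 bp was higher in ΔDL (434) than in KLF3 (296), and one at -7 bp was lower (101 against 419). These promoters were chosen after their values were seen. The shares over both lists stand beside the 14.8% and 28.8% of all peaks given above for ΔDL and the 52.6% for DBD. These are not a like background, since 68 of the 86 and 30 of the 33 peaks were listed for KLF3, against 63.6% of all peaks. Among all peaks listed for KLF3, 23.3% were at least 2-fold lower in ΔDL, 11% higher and 79.2% lower in DBD.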

How the data were processed

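Deposited peak files of KLF3, ΔDL and DBD were used, namely 6 lists of single replicates, 3 merged lists and a table of all peaks. According to the submitters' processing notes, FastQC 0.10.1, Bowtie2 2.0.0, SAMtools 0.1.18 and HOMER 4.1 were used, and the reads were mapped to mm9. Heights are log2 values that the authors counted in both replicates combined. The authors' peak scores are a signal in tags per 100 M. The deposited G+C content is a fraction, and conservation is a PhastCons score as deposited by the authors. The same peak in 2 of the files differed by a median of 1.39 to 2.54 normalized tags, so tag numbers were recovered within about 1 tag and intervals are approximate.

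Motifs and sequences were read from mm9, where 31316 of 31318 merged peaks had the deposited G+C content within 0.002. Overlap was at least 1 bp. List counts and peak scores had replicate values, and only the list counts were tested, by exact permutation over all splits of the lists. The binomial and Wilson intervals were computed with scipy 1.17.1. The scripts were tested on simulated data. The full-value peaks are the highest KLF3 peak of each gene, promoter peaks, the most positive and most negative difference in ΔDL and peaks called in both DBD replicates; other peaks are given in brief. The genes and lists were chosen with earlier results of these data known. The inputs were not analysed separately, since the authors used them when calling peaks. The sequence of 1 peak is not reported here.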

Additional observations from a re-analysis of the deposited data

How the results depend on the processing

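The 2-fold limit and the scaling moved the ΔDL counts most. Peaks at least 2-fold lower in ΔDL numbered 18 with heights scaled over the peaks listed for all 3 constructs (43.0% of all peaks), 14 at a 1.5-fold and 4 at a 3-fold limit, against 8. Those higher numbered 0 and 3 under the 2 scalings (over shared and over all peaks), 0 at the 3-fold limit, 2 among peaks listed for KLF3 and 2 within 100 kb of the start site, against 6. Those higher in DBD numbered 9 when scaled over all peaks, where the share of all peaks was not counted, and 2 at a 1.5-fold limit, against 0. The median difference in ΔDL was -1.43 and -0.54 under the 2 scalings, -0.73 for peaks listed for KLF3 and -0.69 within 100 kb, and in DBD -3.07, -1.49, -3.30 and -2.76. The shifts applied were -1.06 and -0.17 for ΔDL and -0.42 and 1.16 for DBD. Peaks called in both ΔDL replicates would number 20 with replicate 2 alone (12 with replicate 1 alone), and in DBD 3 to 7 with 1 replicate; for KLF3 the range was 21 to 23. The KLF consensus rose to 62.1% in 400 bp and the RUNX motif to 58.6% as TGTGG. An overlap of 200 bp gave no value because no list peak is wider than 143 bp; 100 bp was chosen after seeing the data and changed no count.

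With the replicate number as a block, the differences in list counts stayed at -11 (p = 0.50, exact permutation) and -33 (p = 0.50, exact permutation), where 2 pairs allow no smaller p. Leaving out 1 list at a time, ΔDL minus KLF3 ran from -22.5 to 0.5, which reversed the sign only without ΔDL replicate 1, and DBD minus KLF3 from -35.5 to -30.5. Of 67 alternatives, 44 gave a difference in list counts of the same sign, a count of peaks within 1.5 times, a median within 0.1 or a share within the interval of the reported value. The lowest recovered total, 1.77 M tags in ΔDL replicate 1, makes 1 tag worth most in that list.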
